A study of Mus musculus with 16 samples.

Results

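Heat shock proteins and chaperonins are the proteins that fold, hold, assemble and disassemble other proteins. The RNA of their genes was compared between a mouse thymic lymphoma line and a mouse pre-B cell line. Members were chosen by symbol alone: genes whose names start with Hspa, Hspb, Hspd, Hspe, Hsph or Hsp90, the numbered Dnaja, Dnajb and Dnajc genes, the Cct genes 2 to 8 and Tcp1. This gave 83 of the 38293 counted genes, after 11 pseudogenes with a -ps suffix were left out. P6D4 is a line from SCID.adh, a murine lymphoma of the thymus, and its stage is labelled DN3, at which thymocytes carry no finished T cell receptor. 70Z/3 is a lymphoblast line labelled as pre-B, the stage of B cell development before a complete antibody is made. Each line was measured in 3 RNA-Seq libraries of messenger RNA and in 1 deposited peak list of the transcription factor Miz1, out of 16 samples in the series, and the labels name no treatment, heat shock, transgene or animal age.

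Each lineage is represented by 1 cultured tumour line, so line and lineage cannot be told apart. Whether the libraries of a line are separate cultures is not stated in the labels, and the p-values cover the scatter among libraries only, and that scatter may be technical. The libraries held 45.5 to 54.8 M counts in genes. The lines matched their labels: 8 of 8 pre-B markers were lower in P6D4 (summed level 0.759 to 1.32 CPM, counts per 1 M scaled gene counts, against 1867 to 1919 CPM in 70Z/3), and 8 of 8 thymocyte markers were higher (2256 to 2299 against 95.7 to 98.5 CPM, with Trbc2 at 0 in 70Z/3). Of the myeloid list 1 gene was called higher and 2 lower (summed 4.78 to 5.89 CPM in P6D4 and 16.8 to 17.9 CPM in 70Z/3), and of the erythroid list 0 and 1 (0.577 to 0.636 and 0.866 to 0.953 CPM, with Hba-a1 and Hbb-bs at 0 in 70Z/3). The natural killer list had 1 called higher and 1 lower (3.62 to 4.63 and 20.6 to 22 CPM, with Ncr1 at 0 in 70Z/3), and so had the stromal and endothelial list (60.9 to 69.7 and 81.1 to 87.4 CPM). The part of other cell types in the results below was not tested. In RNA from whole cultures, fewer cells that express a gene and less RNA per cell cannot be told apart.

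The families work as a relay. Hsp70 proteins (Hspa genes) bind short hydrophobic stretches of unfolded chains in a cycle driven by ATP. J proteins (Dnaja, Dnajb and Dnajc genes) bring them clients and start ATP hydrolysis, and exchange factors such as Hsph1 release the nucleotide. Hsp90 proteins receive partly folded kinases and hormone receptors, the Cct ring encloses actin, tubulin and other chains, and Hspd1 with its lid Hspe1 does the same inside mitochondria. Lymphocyte precursors depend on these machines for kinase signalling and for the folding of receptor chains in the endoplasmic reticulum (ER), where Hspa5 was found as the protein that holds free immunoglobulin heavy chains. In stressed cells the factor Hsf1 binds heat shock elements in many of these promoters, and ER stress acts through a separate element.

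Of the 83 members, 67 had enough counts to be tested between the lines. With edgeR's quasi-likelihood test and Benjamini-Hochberg adjustment over all genes, 31 of the 67 were higher in P6D4 and 24 lower, and 12 missed the threshold. Called members made up 82.1% of those tested, while 86.5% of all 13750 genes tested were called (43.3% higher and 43.2% lower), so the share is near the background. Beyond 2-fold, tested against that threshold, 9 members were higher and 5 lower, or 20.9%, beside 35.2% of all genes (16.6% higher and 18.6% lower). The median log2 fold change (P6D4 minus 70Z/3 throughout) was 0.06 for the tested members and 0.01 for all genes. Of the members tested, 60 passed the count filter in both lines, 3 through P6D4 alone (Cct6b, Dnajc22 and Hspa12b) and 4 through 70Z/3 alone (Dnajb9, Dnajc28, Dnajc6 and Hspa1b). A gene that passed through the line where it was high had to differ, so the calls of those 7 carry no weight. All 7 are among the members called over 2-fold, as 3 of the 9 higher and 4 of the 5 lower. The rest called over 2-fold were Hspa2, Cct5, Dnajb4, Dnajb14, Dnajc17 and Hspb11, all higher, and Dnajb5, lower. Among the 60 the counts were 28 higher, 20 lower and 12 not called, or 80% called beside 84.2% of the 10819 genes that passed in both lines. A further 7 members had no count in any library (Dnaja4, Dnajb3, Dnajb8, Dnajc5g, Hspb1, Hspb3 and Hspb7), and the other 9 had at most 7 counts in a library (Cct8l1, Dnajb7, Dnajc5b, Hspa12a, Hspa1a, Hspa1l, Hspb2, Hspb8 and Hspb9).

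The direction of the calls differed by family as counts. All 3 Hsp90 genes and all 4 tested Hspb genes were higher in P6D4, and all 3 tested Dnaja genes were lower. All 10 of these passed the filter in both lines. Counting only such genes, 5 of 8 Cct genes were higher and 2 lower, 4 and 2 of 8 Hsp70 genes, 4 and 3 of 9 Dnajb genes and 8 and 9 of 23 Dnajc genes, and of Hspd1 and Hspe1 only Hspe1 was called, lower. Split into J proteins and all others, on the same footing, 16 of 25 members other than J proteins were higher and 5 lower. The 16 include Hspb11, Hspbap1 and Hspbp1, which are not small heat shock proteins but match the symbol rule. Of the J proteins, 12 of 35 were higher and 15 lower. Of all 10819 genes that passed in both lines, 4695 were higher and 4420 lower, and these counts should be read against that. By compartment and with all tested members counted, 13 of 27 tested members that fold proteins in the cytosol and nucleus were higher and 11 lower. In the ER 7 and 3 of 13 were, and in mitochondria 2 and 3 of 8. Among all tested genes 43.3% were higher and 43.2% lower. Summed over all 83 genes, members took 2.06% of counts in P6D4 (20578 ± 343 CPM) and 1.71% in 70Z/3 (17103 ± 587 CPM, SD, n = 3). This sum is mostly the Hsp90 genes, at 7197 against 5027 CPM, and the Cct genes, at 6122 against 4650.2 CPM. Summed J proteins reached 2665 ± 24.4 CPM for P6D4 against 2828 ± 30.5 CPM for 70Z/3.

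**Figure D1:**
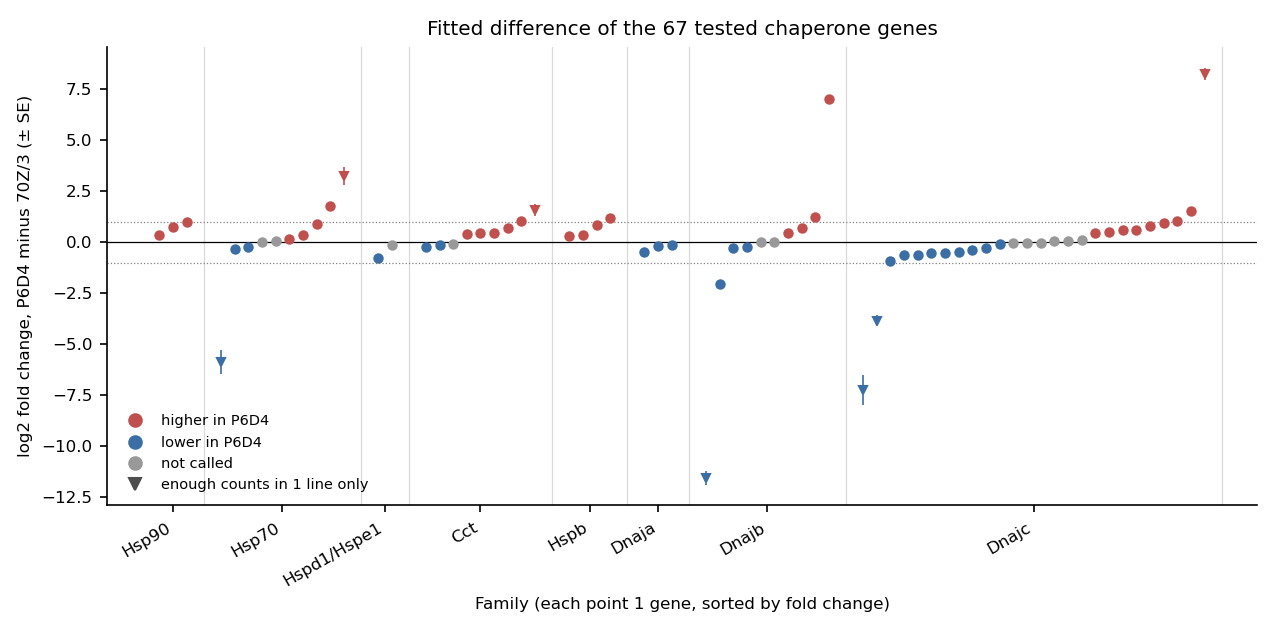
Fitted log2 fold change (P6D4 minus 70Z/3, vertical axis, ± SE) of each of the 67 tested genes, 1 point per gene, grouped by family and sorted within it. All 3 Hsp90 and all 4 Hspb points lie above 0 and all 3 Dnaja points below, while the J protein families Dnajb and Dnajc spread to both sides and hold the extreme values.

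All Hsp90 genes were higher in P6D4. Hsp90aa1 (chr12:110691036-110696395, GRCm38.p6), the stress-responsive cytosolic form, stood at 1191, 1110.2 and 1200.3 CPM in P6D4 and 550, 611 and 611 CPM in 70Z/3. Every P6D4 library was above every 70Z/3 library, with a log2 fold change of 0.98 ± 0.05 (SE, adjusted p = 1.09e-10). Its constitutive partner Hsp90ab1 (chr17:45567778-45573261) was the member with the most counts, at 4536, 4384 and 4541 CPM in P6D4 and 3443, 3614 and 3500.4 CPM in 70Z/3. It differed less, by 0.35 ± 0.03 (SE, adjusted p = 2.06e-07). The ratio of Hsp90aa1 to Hsp90ab1 counts was 0.253 to 0.264 in the P6D4 libraries and 0.16 to 0.175 in the 70Z/3 libraries, so the groups did not overlap. Hsp90b1, the ER form that folds integrins and Toll-like receptors, measured 1475, 1526 and 1625 CPM in P6D4 and 879, 939 and 933 CPM in 70Z/3, a difference of 0.75 ± 0.04 (SE, adjusted p = 6.48e-10). None of the 3 was called over 2-fold (adjusted p = 0.941, 1.0 and 1.0 by edgeR's glmTreat).

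Hsp70 genes did not move together. Hspa8, the constitutive cytosolic Hsp70 that also uncoats clathrin vesicles, was lower in P6D4, at 791, 777 and 796 CPM in P6D4 and 919, 1019 and 1012 CPM in 70Z/3. The P6D4 libraries lay below all 70Z/3 libraries, with a log2 fold change of -0.32 ± 0.04 (SE, adjusted p = 4.67e-06). Hspa4, an Hsp110-type exchange factor, was also lower (484, 456 and 472 CPM against 517, 565 and 559 CPM for P6D4 against 70Z/3), with a log2 fold change of -0.22 ± 0.04 (SE, adjusted p = 0.000169). Its relative Hspa4l was higher, at 213, 216 and 221 CPM in P6D4 and 120.2, 113 and 117 CPM in 70Z/3, a difference of 0.89 ± 0.04 (SE, adjusted p = 1.92e-11). Within a library, Hspa4l counts were 0.439 to 0.474 of Hspa4 counts in P6D4 and 0.199 to 0.232 in 70Z/3. Hsph1, another exchange factor of this type, read 278, 243 and 263 CPM in P6D4 and 228, 276 and 272 CPM in 70Z/3. Its groups overlapped and it was not called (log2 fold change 0.02 ± 0.06 SE, adjusted p = 0.82). 70Z/3 library 1 was the lowest of its line for Hspa8, Hspa4, Hspa5, Hspa9, Hsph1, Hspd1 and Hspe1, though not for Hspa4l. It was also the lowest for every Hsp90 gene and every gene of the Cct ring. Summed over all members it held 16452 CPM, beside 17595 and 17261 CPM in the other 70Z/3 libraries. The heat-inducible pair Hspa1a and Hspa1b, on chromosome 17, had few counts. Hspa1a had 3, 4 and 1 counts in P6D4 and 3, 0 and 1 counts in 70Z/3 and was not tested. Hspa1b had 0, 1 and 0 counts in P6D4 and 21, 27 and 24 counts in 70Z/3, or 1 against 72 in all, a 70Z/3 to P6D4 ratio of CPM of 80.5 (95% counting interval 14 to 3224). These genes are near-identical copies, with 296 of 300 promoter positions identical, so reads could be split between them or left uncounted and both values are uncertain.

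Among the remaining Hsp70 members, Hspa2 was over 2-fold higher in P6D4. This gene, known for its role in sperm development, had 7.03, 7.51 and 8.82 CPM in P6D4 and 2.55, 1.91 and 2.38 CPM in 70Z/3. That is 3.41-fold, with a log2 fold change of 1.77 ± 0.13 (SE, adjusted p = 1.13e-08). Hspa12b, a distant relative known from endothelium, had 18, 20 and 19 counts in P6D4 and 3, 1 and 1 counts in 70Z/3. The 3 P6D4 libraries were above all 3 of 70Z/3 for both genes, but Hspa12b passed the count filter through P6D4 alone, and its values are a description. Hspa13, a microsomal Hsp70, was not called at 0.06 (adjusted p = 0.18), although its groups did not overlap.

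**Figure D2:**
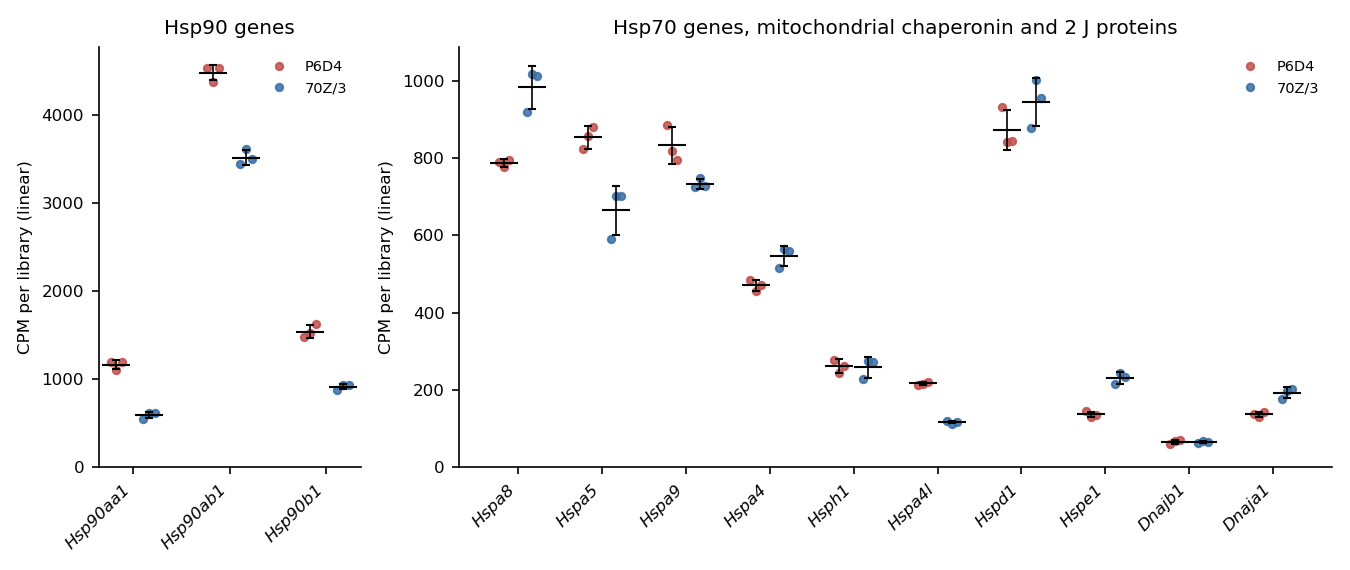
CPM per library (linear axes from 0) of the 3 Hsp90 genes (left) and of 10 Hsp70, mitochondrial chaperonin and J protein genes (right), 1 point per library, by line. P6D4 points lie above those of 70Z/3 for all 3 Hsp90 genes and for Hspa5, Hspa9 and Hspa4l, below for Hspa8, Hspa4, Hspe1 and Dnaja1, and overlap for Hsph1, Hspd1 and Dnajb1.

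Among 13 ER members 7 were higher in P6D4 and 3 lower. Of those lower, Dnajb9 passed the count filter through 70Z/3 alone. The summed level of the 13 was 3254 ± 123 CPM for P6D4 against 2281 ± 91.6 CPM for 70Z/3 (SD, n = 3). Hspa5, the ER Hsp70 also called BiP, was higher, at 823, 857 and 882 CPM in P6D4 and 592, 702 and 701 CPM in 70Z/3. Its log2 fold change was 0.36 ± 0.06 (SE, adjusted p = 3.85e-05). Hspa8 went the other way, and the Hspa8 to Hspa5 count ratio was 0.902 to 0.96 in P6D4 libraries and 1.44 to 1.55 in those of 70Z/3. Dnajc3, an ER J protein that also inhibits the kinase PERK, was at 215, 232 and 233 CPM in P6D4 and 148, 152 and 147 CPM in 70Z/3, higher by 0.60 ± 0.04 (SE, adjusted p = 3.25e-09). The secretory pathway J proteins Dnajc14 (0.81), Dnajb12 (0.69) and Dnajc18 (0.45) were called higher too, on the log2 scale. Dnajc1 (-0.50) and the reductase Dnajc10 (-0.45) were called lower, and Dnajb11 (0.04), a BiP partner, and Dnajc16 (-0.01) were not called. The remaining ER members, Dnajb9 and Dnajb14, were at or near 0 counts in 1 line and are described below with the other such genes.

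Hspa5, Hsp90b1 and Dnajc3 are shown because, of the members with a promoter window, they alone hold the ER stress response element, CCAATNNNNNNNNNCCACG on either strand. Windows run from 250 bases before to 50 after the transcription start in RefSeq (GRCm38.p6), and 68 of the 83 members had one. The members without one, which were not searched, are Cct4, Dnajc11, Dnajc12, Dnajc18, Dnajc2, Dnajc22, Dnajc30, Dnajc5, Dnajc5b, Hsp90aa1, Hsp90ab1, Hspa13, Hspa8, Hspa9 and Hspb2. The element occurred in 4.41% of members with a window and 0.137% of 27025 genes. All 3 genes were higher in P6D4, by 0.36, 0.75 and 0.60 on the log2 scale, where 43.3% of all tested genes were called higher. Hsp90b1 lies on chromosome 10, whose median log2 fold change was 0.45. The part of the element in these values was not tested. Hsp90b1 holds 2 matches. Sequences are 5′ to 3′ along the gene, and capitals mark the matches. The windows are chr2:34771840-34772139, plus strand for Hspa5, chr10:86705395-86705694, minus strand for Hsp90b1 and chr14:118937682-118937981, plus strand for Dnajc3.
Hspa5: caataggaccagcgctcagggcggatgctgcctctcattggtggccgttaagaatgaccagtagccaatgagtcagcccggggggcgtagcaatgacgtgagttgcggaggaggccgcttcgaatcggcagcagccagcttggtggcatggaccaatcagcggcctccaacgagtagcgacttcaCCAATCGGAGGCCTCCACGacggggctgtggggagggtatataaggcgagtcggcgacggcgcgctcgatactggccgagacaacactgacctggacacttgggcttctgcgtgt
Hsp90b1: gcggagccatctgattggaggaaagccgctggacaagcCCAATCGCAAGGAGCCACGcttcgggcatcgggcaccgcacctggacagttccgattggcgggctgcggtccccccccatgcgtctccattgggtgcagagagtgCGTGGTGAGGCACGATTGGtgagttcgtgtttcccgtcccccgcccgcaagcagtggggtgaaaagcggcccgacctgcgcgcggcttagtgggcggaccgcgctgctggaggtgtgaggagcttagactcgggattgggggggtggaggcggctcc
Dnajc3: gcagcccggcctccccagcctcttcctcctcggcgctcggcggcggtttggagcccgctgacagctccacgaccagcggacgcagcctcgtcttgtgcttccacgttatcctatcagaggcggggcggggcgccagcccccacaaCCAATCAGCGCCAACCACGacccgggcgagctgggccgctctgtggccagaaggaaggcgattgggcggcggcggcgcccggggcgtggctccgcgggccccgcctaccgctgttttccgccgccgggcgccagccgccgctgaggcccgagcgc

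Mitochondrial members showed small differences in both directions. Hspa9, the mitochondrial Hsp70 called mortalin, was higher in P6D4, at 887, 818 and 795 CPM in P6D4 and 726, 749 and 727 CPM in 70Z/3, by 0.18 ± 0.04 (SE, adjusted p = 0.000816). Hspd1, the Hsp60 chaperonin, read 934, 843 and 844 CPM in P6D4 and 879, 1003 and 955 CPM in 70Z/3. Its groups overlapped and it missed the call (log2 fold change -0.11 ± 0.05 SE, adjusted p = 0.0503). Without P6D4 library 1 its adjusted p was 0.00393, and without 70Z/3 library 1 it was 0.00687. Hspe1, the Hsp10 lid, was lower at 145, 130.1 and 134 CPM in P6D4 and 215, 244 and 234 CPM in 70Z/3, a log2 fold change of -0.76 ± 0.05 (SE, adjusted p = 6.11e-09), and every P6D4 library lay below every 70Z/3 library. Hspd1 counts were 6.29 to 6.48 times Hspe1 counts in P6D4 and 4.08 to 4.11 times in 70Z/3. A pseudogene, Hspd1-ps3, held 0.0556 to 0.059 of the Hspd1 count in every library, so some reads may be shared between such copies. Of the mitochondrial J proteins, Dnajc15, at the inner membrane import channel, was higher (0.59 on the log2 scale). Its relative Dnajc19 (-0.53) and Dnaja3 (-0.11, adjusted p = 0.0137) were lower, and Dnajc11 (0.06) and Dnajc30 (0.11) were not called. Dnaja3 lost its call without P6D4 library 2 or 3 or 70Z/3 library 2 (adjusted p = 0.0622, 0.0667 and 0.0666).

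Hspd1 and Hspe1 are divergent neighbours on chromosome 1, whose median log2 fold change was -0.46. Less that median, Hspe1 was at -0.29 and Hspd1 at 0.35. The table gives 2 starts for Hspd1: one lies 216 bases from the Hspe1 start and its window shares 285 bases with that of Hspe1, and the other lies 95 bases past the Hspe1 start, with 4 bases shared and no heat shock element in its window. The Hspe1 window is shown because most of it is common to a gene that was called and, by the first of these starts, a gene that was not, and because it holds a heat shock element of 3 alternating units (GAANNTTCNNGAA or TTCNNGAANNTTC). Such an element was present in 4 of 68 members with a window (5.88%), namely Hspd1, Hspe1, Hsph1 and Dnajb6, and in 0.662% of 27025 genes. Hsph1 and Dnajb6, a J protein that holds back aggregation, are printed beside it as the other bearers of the element. Capitals mark matches to this element and to its 2-unit form (GAANNTTC or TTCNNGAA), which lies inside it. Of the 4 genes, Hspe1 and Dnajb6 were lower in P6D4 (-0.76 and -0.27), and Hspd1 and Hsph1 were not called. Hsp90aa1, higher in P6D4, is among the members not searched. The windows are chr1:55087898-55088197, plus strand for Hspe1, chr5:149636266-149636565, minus strand for Hsph1 and chr5:29735648-29735947, plus strand for Dnajb6.
Hspe1: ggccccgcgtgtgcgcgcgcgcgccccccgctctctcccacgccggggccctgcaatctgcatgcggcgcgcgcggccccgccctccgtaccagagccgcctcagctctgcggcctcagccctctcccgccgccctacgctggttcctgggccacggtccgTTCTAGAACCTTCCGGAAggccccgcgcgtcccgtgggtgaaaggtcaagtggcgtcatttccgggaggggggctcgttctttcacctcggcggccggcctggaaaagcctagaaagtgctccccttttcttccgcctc
Hsph1: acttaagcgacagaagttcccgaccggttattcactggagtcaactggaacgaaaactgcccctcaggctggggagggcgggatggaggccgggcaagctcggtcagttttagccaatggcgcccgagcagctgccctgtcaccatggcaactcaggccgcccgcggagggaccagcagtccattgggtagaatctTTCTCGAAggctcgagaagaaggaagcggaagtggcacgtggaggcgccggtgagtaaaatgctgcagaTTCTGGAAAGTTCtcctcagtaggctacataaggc
Dnajb6: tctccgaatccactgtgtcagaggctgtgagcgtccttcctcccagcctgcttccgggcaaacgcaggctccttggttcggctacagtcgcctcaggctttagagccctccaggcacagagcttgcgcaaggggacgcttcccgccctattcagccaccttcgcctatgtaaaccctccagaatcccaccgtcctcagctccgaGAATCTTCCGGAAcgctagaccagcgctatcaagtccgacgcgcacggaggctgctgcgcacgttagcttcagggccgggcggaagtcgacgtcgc

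Shorter motifs were also counted, in all genes and in genes with enough counts to test. The 2-unit form was found in 29.4% of members with a window and 17% of all genes, CCAAT in 42.6% and 41.1%, and the E-box CACGTG in 10.3% and 8.09%. The TATA motif, TATAAA, was found in 5.88% and 15.7%. Among tested genes the shares were 24.1% of 54 members and 13.8% of 9936 genes for the 2-unit form, 44.4% and 43.1% for the CCAAT motif, 13% and 11.6% for the E-box, and 5.56% and 8.6% for the TATA motif. CCAAT lies inside the ER element, and the 2-unit form inside the 3-unit element. These are counts of letters on either strand, given with no test.

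The cytosolic chaperonin is a double ring built from the products of Tcp1, Cct2, Cct3, Cct4, Cct5, Cct6a, Cct7 and Cct8, each present at the same number of copies in the complex. Their RNA did not change by the same amount. Of the 8 genes, 5 were higher in P6D4 and 2 lower, 1 was not called, and their fitted log2 fold changes ran from -0.23 to 1.07. Cct5 (chr15:31590800-31601846) differed most, at 1219, 1159 and 1191 CPM in P6D4 and 543, 581 and 570.2 CPM in 70Z/3. That is a log2 fold change of 1.07 ± 0.04 (SE, adjusted p = 2.61e-12), and it alone of the 8 was called over 2-fold (adjusted p = 0.0201 by glmTreat). Cct2 followed at 1203, 1170.1 and 1174 CPM in P6D4 and 709, 728 and 718 CPM in 70Z/3, higher by 0.72 ± 0.03 (SE, adjusted p = 4.18e-11). For Tcp1, the alpha subunit, the libraries read 861, 856 and 878 CPM in P6D4 and 619, 627 and 626 CPM in 70Z/3, a difference of 0.47 ± 0.03 (SE, adjusted p = 3.53e-09). In each of these genes all P6D4 libraries were above all 70Z/3 libraries.

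Cct4 and Cct3 were higher by less. Cct4 stood at 666, 642 and 665 CPM in P6D4 and 477, 497 and 480 CPM in 70Z/3 (log2 fold change 0.44 ± 0.03 SE, adjusted p = 1.9e-08), and Cct3 at 604, 557 and 574 CPM in P6D4 and 406, 468 and 452 CPM in 70Z/3 (log2 fold change 0.39 ± 0.05 SE, adjusted p = 5.29e-06). Cct6a and Cct7 went the other way, without overlap between the lines. Cct6a measured 441, 407 and 417 CPM in P6D4 and 469, 515 and 499 CPM in 70Z/3, a log2 fold change of -0.23 ± 0.04 (SE, adjusted p = 0.000157), and Cct7 667, 638 and 649 CPM in P6D4 and 677, 737 and 738 CPM in 70Z/3, a log2 fold change of -0.14 ± 0.04 (SE, adjusted p = 0.00412). Cct8 overlapped between the lines at 597, 561 and 568 CPM in P6D4 and 571, 629.9 and 613 CPM in 70Z/3 and was not called (log2 fold change -0.07 ± 0.04 SE, adjusted p = 0.112). Without P6D4 library 1 or 70Z/3 library 1 it was called lower (adjusted p = 0.0384 and 0.0114). Of the summed ring counts, Cct5 took 19.4 to 19.5% in P6D4 libraries and 12.1 to 12.2% in those of 70Z/3. The ring summed to 6121 ± 134 CPM for P6D4 against 4650 ± 161 CPM for 70Z/3 (SD, n = 3). Cct6b, a form of the zeta subunit known from testis, had 31, 31 and 23 counts in P6D4 and 11, 7 and 7 counts in 70Z/3 and passed the count filter through P6D4 alone, and the related Cct8l1 had at most 2 counts in a library.

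**Figure D3:**
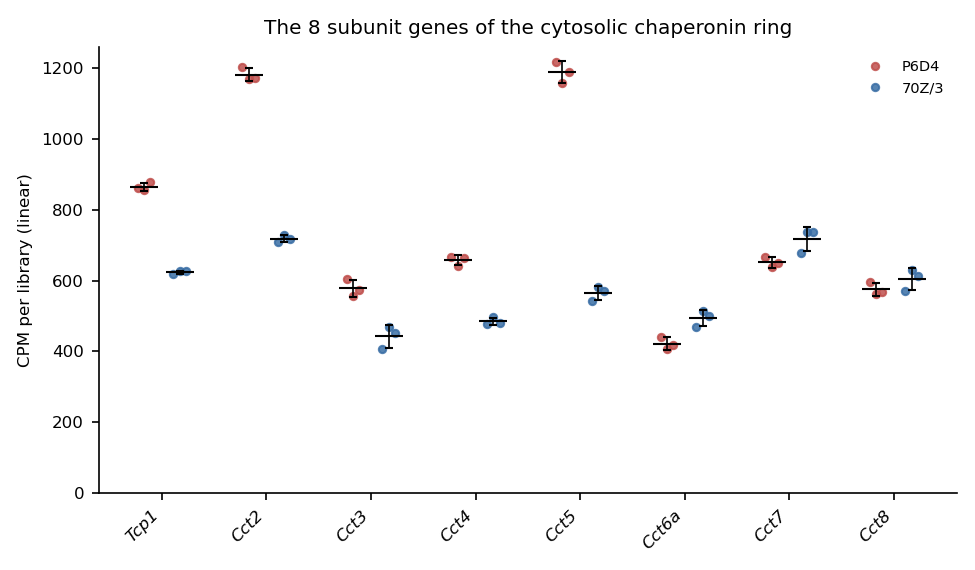
CPM per library (linear axis from 0) of the 8 subunit genes of the cytosolic chaperonin, 1 point per library, by line. The lines are farthest apart for Cct5 and Cct2, and P6D4 points lie just below those of 70Z/3 for Cct6a and Cct7.

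The 8 subunit genes lie on 8 chromosomes, and these 2 tumour lines differ in the median fold change of whole chromosomes. The median log2 fold change of tested genes was 0.90 on chromosome 15, which carries Cct5, 0.45 on chromosome 10 (Cct2), -0.36 on chromosome 5 (Cct6a) and -0.50 on chromosome 6 (Cct7). Across the 8 genes, Pearson's r between a gene's log2 fold change and its chromosome's median was 0.91 and Spearman's rho 0.93, given as a description of these libraries with no test. With the chromosome median subtracted, the range across the ring shrank from 1.3 to 0.59, and Cct6a and Cct7 changed sign, to 0.13 and 0.36. Dnajb2 and Dnajb6 were the other called members to change sign, to 0.25 and 0.09. Over the 60 members that passed the count filter in both lines the same correlation was 0.14 (rho 0.28). Those 60 include the 8 ring genes and also Dnajb14, at 7.05 on a chromosome with a median of -0.06. The value for the 60 is therefore no comparison of the ring with the other members. The part of whole-chromosome differences in these values was not tested.

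**Figure D4:**
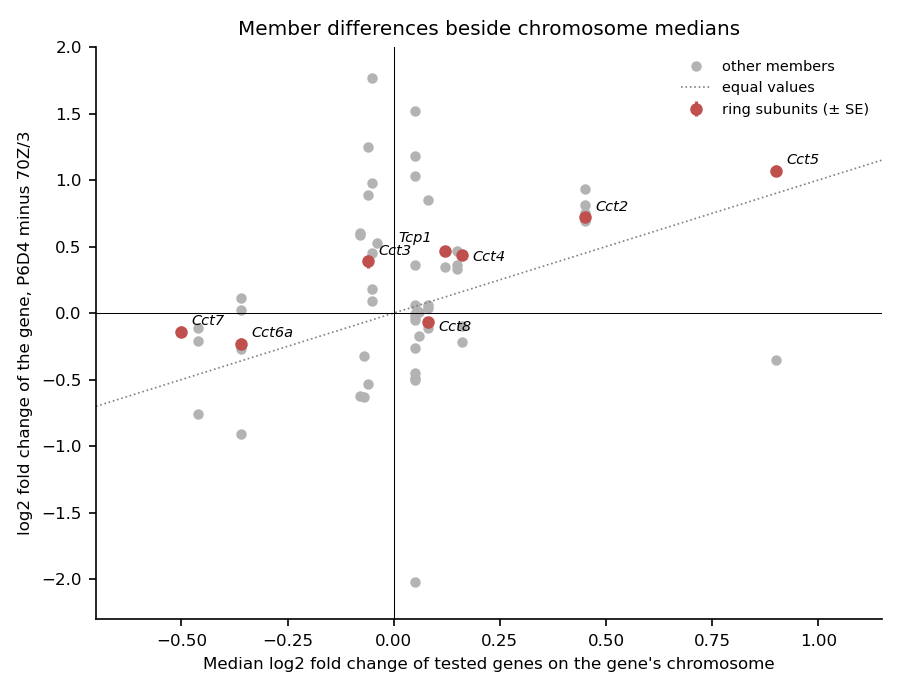
Log2 fold change of each gene (vertical axis) against the median log2 fold change of all tested genes on its chromosome (horizontal axis), for members that passed the count filter in both lines apart from Dnajb14, which lies far above the axis. The 8 ring genes rise from Cct7 and Cct6a at the lower left to Cct5 at the right. The other members are drawn in grey, and the ring was not compared with them.

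Miz1, the product of Zbtb17, activates or represses genes at their starts, and Cct8 was the only member with a peak summit within 1 kb of a gene end in both lists. The lists hold 21629 peaks for P6D4 and 10462 for 70Z/3, each from 1 library, so no replicate check exists. They rest on 2.07 M tags kept of 60.8 M for P6D4 and 4.48 M of 30.9 M for 70Z/3 after duplicate positions were removed. The redundant share was 97% and 85%. At Cct8 (chr16:87483325-87495869) the authors' 70Z/3 list gives chr16:87495705-87496220 with its summit at 87495973, a pileup of 170 tags and a fold over local background of 104, the 47th highest of that list. In the P6D4 list the peak is chr16:87495766-87496229 with its summit at 87495974, a pileup of 35 and a fold of 24.4, 68th in rank. Scores come from lists of different depth and were not compared. These 2 summits lie 104 and 105 bases upstream of the start. The window of chr16:87495820-87496119, minus strand is printed for this reason, with the 21 bases around the 70Z/3 summit in capitals.
Cct8: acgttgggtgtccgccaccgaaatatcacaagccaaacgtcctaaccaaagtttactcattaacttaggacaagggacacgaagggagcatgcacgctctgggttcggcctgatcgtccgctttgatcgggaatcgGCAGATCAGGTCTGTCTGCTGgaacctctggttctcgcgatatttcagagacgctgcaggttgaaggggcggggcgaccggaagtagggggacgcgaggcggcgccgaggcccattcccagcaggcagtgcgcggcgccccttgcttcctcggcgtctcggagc

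Hsp90ab1 was the other member near a summit, in the 70Z/3 list alone. That peak, chr17:45572543-45573069, lies 625 bases inside the gene from its nearer end and is weak, with a pileup of 8 and a fold of 5.46, at rank 8949. Members thus had a summit in 1.2% of cases in the P6D4 list and 2.41% in that of 70Z/3. The same count over 21887 protein-coding genes gave 1.08% and 2.98%, so the members' shares are near the background. The lines' RNA levels differed for Hsp90ab1 and were not called different for Cct8, as given above.

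Small heat shock proteins proper were scarcely measured. Hspb1, Hspb3 and Hspb7 had no count, and Hspb2, Hspb8 and Hspb9 had too few to test. Hspb6, a small heat shock protein of muscle, was tested, at 7.81, 9.6 and 8.6 CPM in P6D4 and 7.38, 6.61 and 6.62 CPM in 70Z/3 and higher in P6D4 by 0.33 ± 0.09 (SE, adjusted p = 0.00387). The other 3 tested Hspb symbols belong to genes of another kind. Hspb11, a part of the intraflagellar transport complex, had 35.9, 37.3 and 36.9 CPM in P6D4 and 17, 16 and 15.8 CPM in 70Z/3, with a log2 fold change of 1.18 ± 0.05 (SE, adjusted p = 3.56e-11) and a call over 2-fold (adjusted p = 0.00114 by glmTreat). Hspbap1, named for its binding to Hspb1, read 11.7, 12.6 and 13.3 CPM in P6D4 and 7.49, 6.82 and 6.6 CPM in 70Z/3 (log2 fold change 0.85 ± 0.08 SE, adjusted p = 2.1e-07). Hspbp1, an exchange factor for Hsp70, read 43.7, 42.4 and 39.1 CPM in P6D4 and 28.2, 35.3 and 34 CPM in 70Z/3 (log2 fold change 0.36 ± 0.07 SE, adjusted p = 0.000375). For all 4 genes the lines did not overlap.

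Type A J proteins, the general partners of cytosolic and mitochondrial Hsp70, were all lower in P6D4 where tested. Dnaja1 measured 137, 131 and 142 CPM in P6D4 and 177, 198 and 203 CPM in 70Z/3, a log2 fold change of -0.49 ± 0.05 (SE, adjusted p = 5.06e-07). Dnaja2 measured 238, 234 and 234 CPM in P6D4 and 257, 269 and 268 CPM in 70Z/3, a log2 fold change of -0.17 ± 0.03 (SE, adjusted p = 0.000237). Neither gene overlapped between the lines. Dnaja3 stood at 92, 87.7 and 86.1 CPM in P6D4 and 94.1, 99.4 and 94.4 CPM in 70Z/3, where the lines lay closest together.

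Type B J proteins went both ways. Dnajb1, the heat-inducible Hsp40 that works with Hspa8 in disaggregation, stood at 60.1, 67.4 and 69.7 CPM in P6D4 and 62.3, 67.9 and 65 CPM in 70Z/3, overlapped between the lines and was not called (log2 fold change 0.01 ± 0.05 SE, adjusted p = 0.811). Dnajb4, a close relative of it, was over 2-fold higher in P6D4, at 40.7, 44.4 and 48.4 CPM in P6D4 and 20.2, 18.3 and 17.7 CPM in 70Z/3 (log2 fold change 1.25 ± 0.07 SE, adjusted p = 6.9e-10). Dnajb12, an ER membrane J protein, read 73.1, 74.9 and 74.9 CPM in P6D4 and 48.2, 46 and 44.2 CPM in 70Z/3 (log2 fold change 0.69 ± 0.04 SE, adjusted p = 1.79e-09). Dnajb5, another relative, went the other way and was over 2-fold lower in P6D4, at 2.42, 3.61 and 3.16 CPM in P6D4 and 12.1, 13.2 and 11.9 CPM in 70Z/3 (log2 fold change -2.02 ± 0.11 SE, adjusted p = 1.01e-09). Dnajb6 was lower by little, at 59.3, 58 and 56.9 CPM in P6D4 and 68.2, 70.4 and 71.9 CPM in 70Z/3 (log2 fold change -0.27 ± 0.04 SE, adjusted p = 1.38e-05). So the related Dnajb1, Dnajb4 and Dnajb5 each gave a different result between the lines. Dnajb2 (-0.21), known from neurons, was lower, and Dnajb13 (0.47), of sperm flagella, was higher.

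Type C J proteins share only the J domain, and most serve 1 client or process. Of the 6 with a defined nuclear or cytosolic client 4 were lower in P6D4, 1 higher and 1 not called. Dnajc2, which sits on the ribosome at the tunnel exit, was at 102, 94.8 and 93.7 CPM in P6D4 and 182, 183 and 181 CPM in 70Z/3, a log2 fold change of -0.91 ± 0.04 (SE, adjusted p = 2.78e-11). Dnajc17, a splicing-associated J protein, was over 2-fold higher, at 11, 12.2 and 12 CPM in P6D4 and 3.66, 4.02 and 4.62 CPM in 70Z/3 (log2 fold change 1.52 ± 0.09 SE, adjusted p = 2.21e-09). In both, every library of a line lay apart from every library of the other. Dnajc9, a histone co-chaperone (-0.62), Dnajc21, needed for ribosome assembly (-0.35), and Dnajc8, of the spliceosome (-0.26), were also called lower, and Dnajc24, of diphthamide synthesis (-0.05), was not called.

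Of the 3 vesicle J proteins tested, 2 passed the count filter in both lines, and Dnajc6 passed it through 70Z/3 alone. Dnajc13, an endosomal protein, was lower (-0.63), Dnajc5, the cysteine string protein of secretory vesicles, was not called (-0.03), and Dnajc6 is given below. Among J proteins with no compartment assigned here, Dnajc25 read 18.2, 19 and 17.3 CPM in P6D4 and 8.06, 9.47 and 9.19 CPM in 70Z/3. Its log2 fold change was 1.03 ± 0.07 (SE, adjusted p = 1.09e-08), though the test for over 2-fold did not call it (adjusted p = 0.408). Dnajc12 (0.93), which folds aromatic amino acid hydroxylases, and Dnajc4 (0.53) were called higher, and Dnajc27 (0.09) was not called. The cytosolic Dnajc7, a J protein that also binds Hsp90, was called lower by a small amount (-0.10, adjusted p = 0.0163). It lost the call without P6D4 library 3 or 70Z/3 library 2 (adjusted p = 0.0894 and 0.0548).

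A few J proteins were at or near 0 counts in 1 line. Dnajb9 (chr12:44205897-44210068), an ER J protein that restrains the stress sensor IRE1, had 0, 0 and 0 counts in P6D4 and 376, 365 and 319 counts in 70Z/3. With no count in any P6D4 library, it was at least 123-fold lower there, with 3 counts per library (0.0616 CPM) taken as the floor. Dnajb14 (chr3:137867675-137916563), an ER membrane J protein related to Dnajb12, was the reverse, with 2722, 2997 and 3040 counts in P6D4 and 17, 21 and 21 counts in 70Z/3. That is 49.1, 56.9 and 62.4 CPM in P6D4 and 0.362, 0.435 and 0.466 CPM in 70Z/3, with a fitted log2 fold change of 7.05 ± 0.14 (SE, adjusted p = 7.91e-15). Among ER members these 2 lay farthest apart between the lines, in opposite directions. Dnajb9 passed the count filter through 70Z/3 alone, so its values are a description.

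Dnajc22 (chr15:99099134-99104709), a membrane J protein linked to clathrin, had 300, 287 and 226 counts in P6D4 and 0, 1 and 1 counts in 70Z/3. Its P6D4 to 70Z/3 ratio of CPM was 363 (95% counting interval 100.3 to 3006). Dnajc28, of little-known function, had 6, 6 and 12 counts in P6D4 and 127, 94 and 93 counts in 70Z/3. Dnajc6, the neuronal auxilin that recruits Hspa8 to clathrin coats, had 0, 0 and 0 counts in P6D4 and 18, 18 and 17 counts in 70Z/3, and the same floor puts it at least 6.14-fold lower in the former. For each of these genes the lines did not overlap. Intervals and floors cover counting error only. Dnajb14 passed the count filter in both lines, and the others through 1 line alone.

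**Figure D5:**
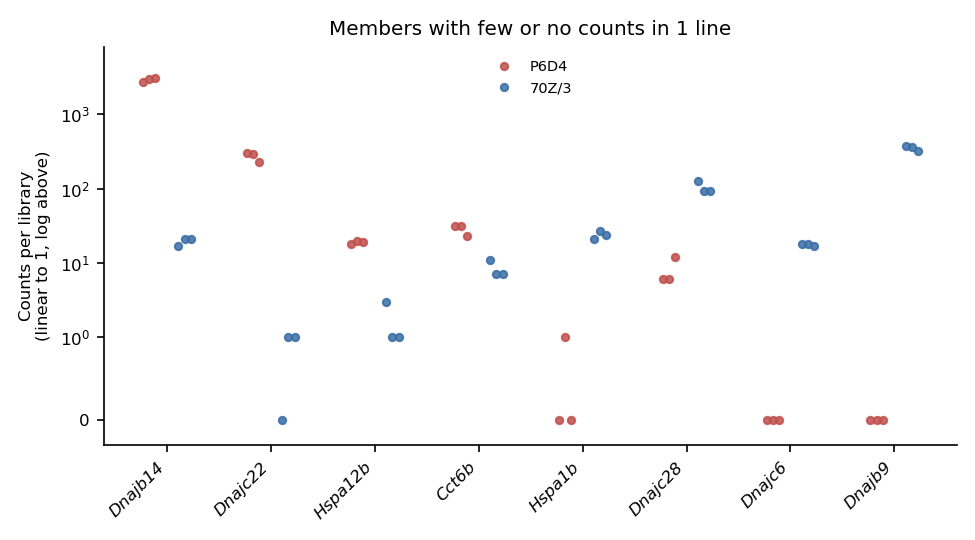
Counts per library (vertical axis linear up to 1 and logarithmic above) of 8 members with few or no counts in 1 line, 1 point per library, by line. Dnajb14 and Dnajc22 are high in P6D4, Dnajb9 and Dnajc6 have 0 counts in all 3 P6D4 libraries, and Hspa12b, Cct6b and Hspa1b have few counts in both lines.

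The regulators and partners of these families were read from 7 lists of 75 genes, of which 74 were tested. Over the 7 lists 46 genes were higher in P6D4 and 20 lower, 8 missed the threshold, and the median log2 fold change was 0.28, beside 0.01 over all genes. Called genes made up 89.2% of those tested, near the 86.5% of all genes (43.3% higher and 43.2% lower), and each list should be read against those shares. Heat shock factors and their regulators had 5 of 5 tested genes higher, of which Hsf2bp passed the count filter through P6D4 alone. Hsf1, the main activator of heat shock genes, was at 135, 128 and 132 CPM in P6D4 and 76.9, 81.5 and 79.9 CPM in 70Z/3, higher by 0.73 ± 0.04 (SE, adjusted p = 2.79e-10). It lies on chromosome 15, whose median was 0.90. Hsf2, a developmental relative on chromosome 10 (median 0.45), was higher by 0.41 ± 0.05 (SE, adjusted p = 2.19e-06). Less these medians, Hsf1 was at -0.18 and Hsf2 at -0.05. Hsf2bp, a binding partner of Hsf2, had 49, 43 and 45 counts in P6D4 and 12, 9 and 8 counts in 70Z/3.

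Hsp90 co-chaperones had 11 of 17 higher, 4 lower and 2 not called. The immunophilin Fkbp5, which tunes steroid receptors, differed most, at 905, 907 and 893 CPM in P6D4 and 135, 138 and 141 CPM in 70Z/3 (log2 fold change 2.71 ± 0.03 SE, adjusted p = 6.86e-17). Ahsa2, of the ATPase activator family, was higher too (0.94), while Chordc1 (-1.33) and the kinase adaptor homolog Cdc37l1 (-1.29) were lower, both over 2-fold. Exchange factors of Hsp70 gave 5 higher, 3 lower and 2 not called. Bag3, of chaperone-assisted autophagy (0.98), and the mitochondrial Grpel2 (0.97) rose most, Sil1 (-0.45) and Bag6 (-0.25) fell most, and the ER factor Hyou1 was higher by 0.18. Prefoldin, which hands actin and tubulin to the Cct ring, and phosducin-like genes gave 6 higher, 2 lower and 1 not called, with Pfdn4 (0.91) and Pfdn2 (0.61) highest and Pdcl3 (-0.38) and Vbp1 (-0.09) lowest.

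Other ER folding genes did not follow Hspa5 and Hsp90b1 as a list, with 7 of 15 higher, 6 lower and 2 not called (median -0.03). The oxidases Ero1lb (1.45) and Ero1l (0.89) were higher, and the ubiquitin ligase Syvn1 (-1.89) and the BiP cofactor Sdf2l1 (-1.10) were lower. Regulators of the unfolded protein response gave 4 higher, 4 lower and 1 not called. Ppp1r15a, which restores translation (2.37), and the IRE1 gene Ern1 (1.88) were over 2-fold higher, and its target Xbp1 was higher by 0.76 ± 0.04 (SE, adjusted p = 5.55e-10). Atf6b (-0.79) and Ddit3 (-0.69) were lower. Mitochondrial quality control genes gave 8 higher and 1 lower of 9. The proteases Spg7 (1.08) and Afg3l2 (1.01) rose most, the mitochondrial Hsp90 gene Trap1 was higher by 0.62 ± 0.04 (SE, adjusted p = 1.6e-09), and Yme1l1 (-0.15) was the 1 lower gene.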

How the data were processed

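RNA-Seq counts were used from 3 libraries of P6D4 and 3 of 70Z/3, and Miz1 peak lists from 1 ChIP-Seq library per line; the other samples were not analysed here. The deposited counts are whole-number reads per Ensembl gene, not normalised by the authors. Per the submitters' processing notes, TopHat2 2.0.10, Bowtie2 2.10, SAMtools, bedtools and HTSeq were used, with builds mm10 and GRCm38. The kit is a stranded one, per the labels' protocols; the strand HTSeq counted is one the sources used here do not give, and where genes overlap, sense or antisense, their counts may be mixed. HTSeq's 5 closing lines per file stayed out; of uniquely aligned reads 14.5 to 16% were outside genes and 0.382 to 0.424% ambiguous. For each gene count there were 1.1 to 1.14 non-unique alignments (P6D4) or 1.41 to 1.44 (70Z/3), so near-identical genes are in part uncounted. The peak lists were made by MACS (2.0.10.20120913 per the file headers) at a q-value cutoff of 0.01. The deposited pileup (signal), fold (ratio over local background) and −log10 q of each peak are the authors' values.

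Symbols came from a name table (36345 of 38293 genes matched; all 83 members had a RefSeq position). Counts were filtered (filterByExpr, minimum count 10, or 0.206 CPM), scaled by TMM and tested with edgeR 4.0.16 (quasi-likelihood; glmTreat at a log2 fold change of 1) in R 4.3.3, over all genes, with an adjusted p threshold of 0.05 and a biological coefficient of variation of 4.08%. CPM use TMM-scaled library sizes. Transcript lengths were not used, so levels are not compared between genes. The SE was derived as the log2 fold change over the root of the F value, and is too small at low counts. A gene with 0 counts in a line was given a bound against 3 counts per library, and a gene with 1 to 3 counts an exact 95% interval. The fit was tested on simulated data. Same-numbered libraries did not deviate together (correlations -0.13, -0.108 and 0.0317), so no block was used. Libraries of a line were not copies of each other (chi-square 2.56 to 14.7 per degree of freedom). Alternatives were other scalings and filters, DESeq2 1.42.0, limma 3.58.1 (voom), a replicate block, each library left out, chromosome medians subtracted and, for peaks, other distances and thresholds. The drawings used matplotlib 3.10.9.

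Members, lists and tests were chosen with earlier results of these data known. Library values were given for all Cct genes, Hsp90, Hspd1, Hspe1, Hspa5, Hspa8, Hspa9, Hspa1a, Hspa1b, Hsph1, and the 3 most raised and 3 most lowered called genes per family, and others by fold change; Hspb6 and Dnajb1, Dnajc3 and Hspa13 were added or detailed after their values were seen. In partner lists the 2 most raised and 2 most lowered called genes were named, with Hsf1, Hsf2, Xbp1, Trap1 and Hyou1. Compartments were assigned from general knowledge. The gene Hspa14 had no matching symbol and was not analysed here.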

Additional observations from a re-analysis of the deposited data

How the results depend on the processing

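Of the 67 tested members, 57 kept their call, as higher, lower or not called, in all 14 alternative tests. The other 10 changed side in 28 of 938 pairs of member and test. Members that were not called could change sign, as Dnajb1 (-0.02 to 0.08) and Hsph1 (-0.07 to 0.07) did. Across the tests 31 to 36 members were higher and 21 to 26 lower, and beyond 2-fold 7 to 9 were higher and 5 lower. These counts include members that passed the main count filter through 1 line alone. With the replicate number as a block the counts were 31 higher and 24 lower, as without it, and no member changed its call. The count of Cct genes lower, and of ring genes lower, was 1 in place of 2 with upper quartile scaling, where Cct7 lost its call, and 3 with RLE scaling, with DESeq2 and without P6D4 replicate 1 or 70Z/3 replicate 1, where Cct8 gained one. Of Hspd1 and Hspe1, 2 in place of 1 were lower with RLE scaling, with no low-count filter, with at least 10 counts in 3 libraries and with DESeq2; with each library left out in turn the count was 1 to 2, and 2 without P6D4 replicate 1 or 70Z/3 replicate 1. Subtraction of the chromosome median is not among the 14 tests. Less that median, Cct6a was at 0.13, Cct7 at 0.36, Dnajb2 at 0.25 and Dnajb6 at 0.09, all reversed from the fitted sign. A further 32 of the 67 members moved by at least the combined library SD of the lines on the log2 scale, and 31 moved by less. Members with a Miz1 summit in the 70Z/3 list fell to 1 at 500 bp and at a −log10 q of at least 5, without Hsp90ab1. For these results the cause was not tested. The 9 members with at most 7 counts in a library were left out by the count filter; without the filter edgeR called 0 of the 9 (adjusted p 0.0623 to 0.964, the lowest for Hspb9, and 1 with an unadjusted p under 0.05).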

Other observations

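Genes beside the members that were near 0 in 1 line were read after those members' values had been seen, and are given as values with no test. Dnajc22 has Spats2 21217 bases away, with 53.4 CPM for P6D4 and 0.0497 CPM for 70Z/3, and Kcnh3 beyond it at 2.65 and 0.00709 CPM, while Troap on its other side was at 67.3 and 34.1 CPM. The genes next to Dnajb14 showed no such gap: Lamtor3, 1992 bases away, had 22.2 CPM for P6D4 and 29 for 70Z/3, and Dapp1 at 42.4 and 42.7 CPM. Beside Dnajb9, Pnpla8 was at 35.9 and 47.5 CPM, and Nrcam beyond it at 0.019 and 0.192 CPM. On the other side of Dnajb9, Immp2l, 2250309 bases away, was at 3.72 and 3.34 CPM. The more distant Lrrn3, at 2719840 bases, was at 0.00632 and 44.8 CPM. Dnajc28 lies 2396 bases from Gart, with 244 CPM for P6D4 and 254 for 70Z/3, and beyond it Son was at 520.4 and 823 CPM. On its other side Tmem50b was at 48.3 and 19.2 CPM, and Ifngr2 at 5.6 and 32.3 CPM. Dnajc6 has Ak4 on one side (0 and 0.209 CPM) with Jak1 beyond it, 231366 bases from Dnajc6 (198 and 680 CPM), and Leprot (7.06 and 45.6 CPM) on the other with Lepr beyond it (0.0395 and 0.268 CPM).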
